A study of Arabidopsis thaliana with 6 samples.

Results

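Lignin is the phenolic polymer that stiffens the walls of water-conducting xylem cells. Its monolignol building blocks are made in the cytosol from hydroxycinnamoyl-CoA esters, pass into the wall, and are there oxidised by laccases and peroxidases so that the radicals couple. The 10 genes described here comprise 8 for the cytosolic steps, HCT (AT5G48930), CYP98A3 (AT2G40890), CCoAOMT1 (AT4G34050), CCR1 (AT1G15950), F5H (AT4G36220), COMT1 (AT5G54160), CAD4 (AT3G19450) and CAD5 (AT4G34230), and the wall laccases LAC4 (AT2G38080) and LAC17 (AT5G60020). They were listed by locus for their known roles, with earlier results of these data known, out of 32833 loci in the count tables, and 9 of the 10 had enough reads to be tested.

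RNA came from seedlings of Arabidopsis thaliana, genotype Columbia in both groups, for which no transgene or mutation is named. One group of 3 libraries came from seedlings kept in darkness for 3 d in air, and the other group of 3 from seedlings kept in darkness for 3 d with 0.7 ppm ethylene. Both groups then grew for 5 d in light with no ethylene before RNA was taken, so the comparison asks what still differed after the gas was gone. No label says that the libraries of a group came from separate plates or sowings, so the p-values describe the spread between these libraries, which may be technical. Total counts lay between 13163499 and 17462603 per library, and spike-in RNAs, synthetic RNAs of known sequence, took 227291 to 346244 of them.

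In the RefSeq assembly TAIR10.1 the 10 loci lie on all nuclear chromosomes. CCR1 lies at chr1:5478603-5482180 (plus strand), CYP98A3 at chr2:17058053-17060652 (minus), LAC4 at chr2:15934244-15937616 (plus), CAD4 at chr3:6744377-6747238 (plus) and CCoAOMT1 at chr4:16310409-16312308 (plus). CAD5 lies at chr4:16386631-16388940 (minus), F5H at chr4:17137313-17139777 (minus), HCT at chr5:19836299-19838235 (minus), COMT1 at chr5:21981902-21984399 (plus) and LAC17 at chr5:24167996-24170462 (plus).

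The AC elements, short motifs bound by MYB factors of the lignin pathway, were looked for in the window from 250 bases before to 50 bases after each annotated gene start. The searched letters were ACCTACC (AC-I), ACCAACC (AC-II) and ACCTAAC (AC-III), on both strands. A match was found in 6 of the 10 genes, HCT, CYP98A3, CCoAOMT1, CCR1, CAD5 and LAC17, and in 7.29% of 27443 protein-coding promoter windows of the same length. No match lay in the windows of F5H, COMT1, CAD4 or LAC4, and the GCC box AGCCGCC, bound by ethylene response factors, had no match in any of the 10 against 0.794% of all windows. The sites found, in 5 cytosolic genes and 1 laccase gene, are shown because they are the only searched motifs in these windows; capitals mark the element, written on the strand of the gene, and the sequence is that of the RefSeq assembly TAIR10.1.
HCT AC-II, chr5:19838307-19838336, minus strand: ggaacgggtttACCAACCccggatagaaaa
HCT AC-I read on the opposite strand, chr5:19838206-19838235, minus strand: ggtcgtggggcGGTAGGTgaaggattacga
CYP98A3 AC-II, chr2:17060656-17060685, minus strand: taaatcggttcACCAACCccctccctaata
CCoAOMT1 AC-I, chr4:16310185-16310214, plus strand: ccaagagattcACCTACCacggtacacttc
CCR1 AC-II, chr1:5478578-5478607, plus strand: cttcttcttccACCAACCcctctttctata
CAD5 AC-II, chr4:16389160-16389189, minus strand: attgtttgttcACCAACCcccgtggaccct
LAC17 AC-III, chr5:24167924-24167953, plus strand: ctcaagcaaacACCTAACtctcctttccta

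The 250 bases before the annotated starts of both laccases are shown because these genes rose to a like degree. The LAC17 window carries the AC-III element in capitals and the LAC4 window carries none of the searched motifs.
LAC4, chr2:15933994-15934243, plus strand: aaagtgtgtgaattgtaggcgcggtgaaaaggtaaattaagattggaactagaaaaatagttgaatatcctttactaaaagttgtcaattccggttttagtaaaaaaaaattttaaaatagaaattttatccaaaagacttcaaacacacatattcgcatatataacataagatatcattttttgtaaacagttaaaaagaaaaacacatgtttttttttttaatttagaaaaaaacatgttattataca
LAC17, chr5:24167746-24167995, plus strand: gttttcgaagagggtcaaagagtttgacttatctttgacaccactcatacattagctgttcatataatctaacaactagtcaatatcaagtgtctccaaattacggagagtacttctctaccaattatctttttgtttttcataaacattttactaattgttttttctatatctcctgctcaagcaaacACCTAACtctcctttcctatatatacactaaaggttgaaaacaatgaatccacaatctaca

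After ethylene the laccase genes LAC4 and LAC17 were about 2-fold higher, COMT1, F5H and CCR1 were lower, and HCT, CYP98A3, CAD4 and CAD5 did not pass the test. Calls rest on edgeR's quasi-likelihood test at 0.05, with Benjamini-Hochberg adjustment over the 17887 loci tested. Of the 9 tested genes, 2 were called higher and 3 lower, or 55.6%, against 32.6% of all loci tested, with 15.8% of all loci higher and 16.8% lower. The share of loci called was larger when loci under a mean of 5 CPM, before TMM scaling, were left out. Of the 11158 loci then tested 2463 were higher and 2579 lower, and of the 9 genes again 2 and 3. DESeq2 also called 2 higher and 3 lower, where it called 31.5% of all loci, 15.2% higher and 16.3% lower. Levels are given as CPM, the counts scaled to a common library total with TMM factors. The CPM values of the groups did not overlap for 2 higher and 3 lower genes, and for 47.7% of all loci, 23.9% higher and 23.8% lower. The median log2 fold change of the 9 genes was -0.04, and that of all loci tested was 0.02. Small changes turned with the scaling factor: when libraries were scaled on the spike-in RNAs the median of all loci moved from 0.02 to 0.47, 44.7% of loci were called, 40% higher and 4.63% lower, and of these genes 4 were called higher and 0 lower. The spike-in RNAs stood at 14.38, 14.55 and 14.44 log2 CPM in the air libraries, in order of replicate. In the ethylene libraries they stood at 13.84, 13.95 and 14.23. Ethylene replicate 3 thus lay nearer to air replicate 1 than to any other ethylene library. How the spike-in RNAs were added was not examined, and calls gained or lost with this scaling rest on these levels. In RNA from seedlings, fewer cells of a type and less RNA per cell cannot be told apart.

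**Figure D1:**
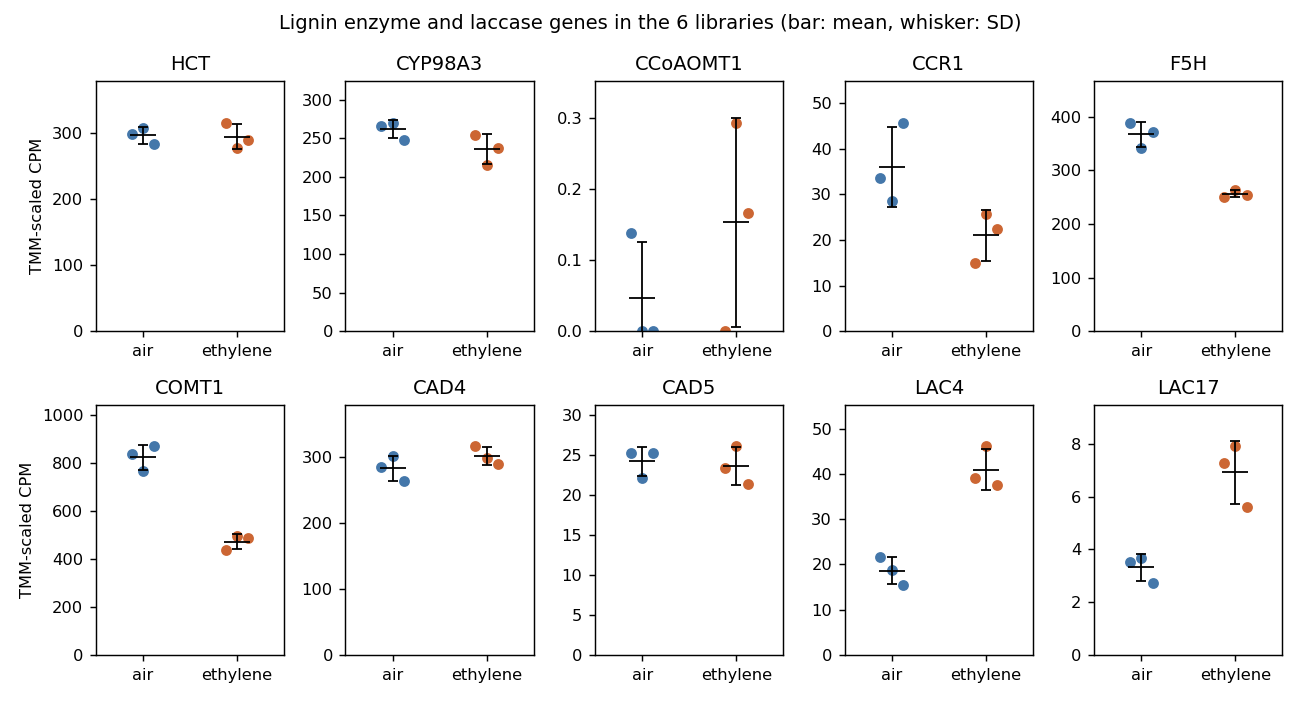
TMM-scaled CPM of the 10 genes in the 3 air and 3 ethylene libraries, each panel with its own linear axis from 0; points are libraries, horizontal bars the mean and whiskers the SD. LAC4 and LAC17 lie higher in every ethylene library, and COMT1, F5H and CCR1 lower, without overlap between groups, whereas the groups overlap in the other panels.

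Levels of different genes can be set side by side only per transcript length and only where a locus has 1 annotated transcript, which holds for 6 of the 10 genes. In air, COMT1 stood at 549.9 ± 35.1 CPM per kb of transcript (SD, n = 3), F5H at 185 ± 11.7, HCT at 165 ± 7.02, CAD4 at 156 ± 10.5, CYP98A3 at 139 ± 6.16 and LAC4 at 8.33 ± 1.37. The libraries of HCT and CAD4 overlapped in this order, and those of the other neighbours did not. F5H and HCT were apart by the narrow gap between 172 and 171 CPM per kb. CAD4 and CYP98A3 were also narrowly apart, at 145 and 143 CPM per kb. After ethylene COMT1 was still first at 315 ± 21.3 CPM per kb, followed by CAD4 at 166 ± 7.28, HCT at 164 ± 10.7, F5H at 129 ± 3.42, CYP98A3 at 125 ± 10.3 and LAC4 at 18.3 ± 2.01. F5H was then near the level of CYP98A3, with which its libraries overlapped, and CAD4 overlapped with HCT.

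HCT, the transferase that joins para-coumaroyl-CoA to shikimate and so opens the route to guaiacyl and syringyl units, was present at 298, 308 and 283 CPM in air replicates 1 to 3 and at 316, 278 and 290 CPM in ethylene replicates 1 to 3. The groups overlapped. Its log2 fold change was -0.01 ± 0.08 (SE, n = 3 per group) with a 95% interval from -0.18 to 0.17 and an edgeR adjusted p of 0.948; with spike-in scaling it was 0.45 (adjusted p = 0.0345).

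CYP98A3, the cytochrome P450 that hydroxylates the shikimate ester, gave 266, 270 and 248 CPM in the air libraries and 255, 216 and 237 CPM in the ethylene libraries. Its groups overlapped as well, air replicate 3 lying below ethylene replicate 1. The log2 fold change was -0.15 ± 0.08, with a 95% interval from -0.33 to 0.04 and an edgeR adjusted p of 0.205, and it became 0.31 with spike-in scaling (adjusted p = 0.156). The locus shares 70 bases with AT2G40880 on the other strand, which had 590 to 803 counts per library and fell by 0.45 ± 0.10 (edgeR adjusted p = 0.00769); whether the counting used strand is not given in the sources used here.

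CCoAOMT1, the methyltransferase of caffeoyl-CoA, was practically unread: the libraries held 2, 0 and 0 counts in air and 0, 5 and 3 after ethylene, all on transcript 3. It was not tested. Transcript 1, of 1153 bases, and transcript 2, of 476 bases, have no base outside the other transcripts in the RefSeq annotation, and both were at 0 in every library. The same held across the genome, where 91.7% of 12621 transcripts whose every base is shared with another transcript of the locus had no counts in any library, against 13.1% of 19420 transcripts with some bases of their own. The level of CCoAOMT1 cannot be read from these counts. Among loci named below as having under 10 counts, CAD6, LAC10, PRX47, MYB58 and COBL4 also have several annotated transcripts. Their levels may likewise not be readable, which was not tested.

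**Figure D2:**
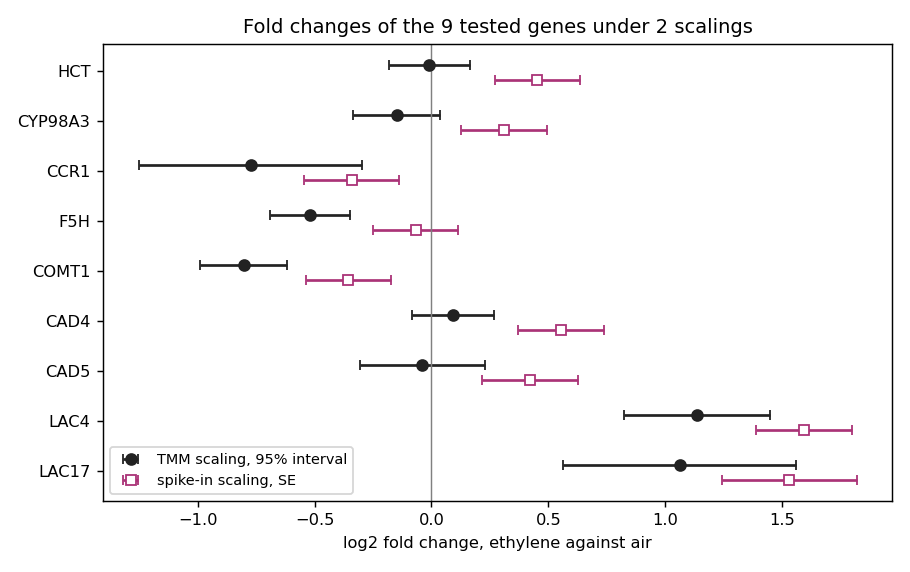
Log2 fold change of ethylene against air for the 9 tested genes; filled circles are TMM-scaled values with 95% intervals, and open squares are spike-in-scaled values with SE. With spike-in scaling the points lie to the right of the TMM points for all 9 genes, so that the falls of COMT1, F5H and CCR1 are no longer called, and LAC4 and LAC17 remain above 0 with both scalings.

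CCR1, the reductase that turns feruloyl-CoA into the aldehyde and commits carbon to monolignols, reached 33.6, 28.6 and 45.7 CPM in the air libraries and 14.8, 25.8 and 22.4 CPM in the ethylene libraries. The highest ethylene library lay just under the lowest air library. CCR1 fell by 0.77 ± 0.21 on the log2 scale (edgeR adjusted p = 0.0199), but the call was lost without air replicate 3 (adjusted p = 0.0546), without ethylene replicate 1 (0.0568) and with spike-in scaling, where the value was -0.34 (0.163). Of its 7 transcripts, the first held between 97.3% and 99.6% of the counts, although just 72 of its 1458 bases lie in no other transcript. The locus also overlaps AT1G05213 on the other strand over 2457 bases, a locus with 155 to 220 counts per library and a log2 difference of -0.33 ± 0.15 (edgeR adjusted p = 0.130). AT1G15960 shares 516 bases with CCR1, also on the other strand, and had 139 to 285 counts per library and a log2 difference of 0.25 ± 0.15 (edgeR adjusted p = 0.253). Reads of CCR1 and these loci may not have been told apart.

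F5H, the cytochrome P450 that directs precursors into syringyl units and sinapate esters, had 389, 343 and 372 CPM in air and, after ethylene, 251, 264 and 254 CPM. All air libraries lay above all ethylene libraries. F5H fell by 0.52 ± 0.08 (edgeR adjusted p = 0.000726), which is 1.43-fold, but scaled on the spike-ins its value was -0.07 (adjusted p = 0.783).

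COMT1, the methyltransferase that completes the syringyl pattern and also serves flavonol and sinapate synthesis, had 835, 766 and 868 CPM in air and, after ethylene, 435, 493 and 487 CPM. The gap between the groups was wider than the range within either. COMT1 fell by 0.80 ± 0.08, or 1.74-fold (edgeR adjusted p = 0.000104), with values from -0.87 to -0.75 when any 1 library was left out; with spike-in scaling the value was -0.36 and was not called (adjusted p = 0.104). Within libraries, which removes the scaling, there were 2.15, 2.23 and 2.34 COMT1 counts per F5H count in air and 1.73, 1.87 and 1.92 after ethylene. The log2 ratio differed by -0.28 and the groups did not overlap (exact two-sided permutation test, p = 0.1, the smallest that 3 against 3 libraries allow).

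The alcohol dehydrogenases CAD4 and CAD5 reduce the aldehydes to monolignols in the last cytosolic step. CAD4 had 285, 301 and 263 CPM in air and, after ethylene, 316, 299 and 290 CPM, groups that overlapped. Its log2 fold change was 0.09 ± 0.08, with a 95% interval from -0.09 to 0.27 (edgeR adjusted p = 0.421), and 0.56 with spike-in scaling (adjusted p = 0.00903). CAD5 had 25.3, 22.1 and 25.3 CPM in air and, after ethylene, 23.4, 26.1 and 21.4 CPM, again with overlap. Its log2 fold change was -0.04 ± 0.12, with a 95% interval from -0.31 to 0.23 (edgeR adjusted p = 0.838), and 0.42 with spike-in scaling (adjusted p = 0.0838). The CAD4 count was 10.4 to 13.6 times that of CAD5 in air and 11.4 to 13.5 times after ethylene, a log2 difference of 0.13 (exact two-sided permutation test, p = 0.4). This ratio is no ratio of levels, because CAD5 has 2 transcripts and the first, with 95.4% to 98.5% of its counts, has 313 bases of its own out of 1615.

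LAC4, known also as IRX12 and required for lignin in interfascicular fibres and vessels, had 21.6, 18.8 and 15.5 CPM in air and, after ethylene, 39.2, 46.1 and 37.6 CPM. Even the lowest ethylene library lay far above the highest air library. LAC4 rose by 1.13 ± 0.14, or 2.20-fold, with an edgeR adjusted p of 0.000272, and by 1.59 with spike-in scaling. The authors' deposited table gives a log2 fold change of 1.14 with an adjusted p of 6.18e-11 for its transcript.

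LAC17, which acts with LAC4 in stem lignification, was read at 51, 45 and 36 counts in air and 113, 135 and 101 counts after ethylene. In CPM these were 3.52, 3.69 and 2.74 against 7.29, 7.91 and 5.60, and the groups were apart. LAC17 rose by 1.06 ± 0.22, or 2.09-fold (edgeR adjusted p = 0.00516), and by 1.53 with spike-in scaling. Its first transcript held 95.6% to 100% of the counts, with 315 of 2049 bases of its own, and the overlapping antisense locus AT5G60022 had 0 to 8 counts per library. There were 5.11 to 6.14 LAC4 counts per LAC17 count in air and 5.37 to 6.72 after ethylene, a log2 difference of 0.08 with groups that overlapped (exact two-sided permutation test, p = 0.6, in a design that cannot go below 0.1).

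Counts per HCT count, a measure chosen after the data were seen, compare the steps within each library without a scaling factor. COMT1 stood at 2.80, 2.48 and 3.07 counts per HCT count in air and at 1.38, 1.77 and 1.68 after ethylene, a log2 difference of -0.79. F5H moved by -0.51, CCR1 by -0.78, CYP98A3 by -0.14 and CAD4 by 0.10 on the same measure. LAC4 rose from 0.0546 to 0.0724 counts per HCT count in air to 0.124 to 0.166 after ethylene, a log2 difference of 1.15, and LAC17 differed by 1.07. For each of these 7 genes, CYP98A3 and CAD4 included, the groups did not overlap, CCR1 by the narrow gap between 0.0927 in air replicate 2 and 0.0926 in ethylene replicate 2. The exact two-sided permutation test gave p = 0.1 in each, the smallest that 3 against 3 libraries allow, so these ratios are a description.

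**Figure D3:**
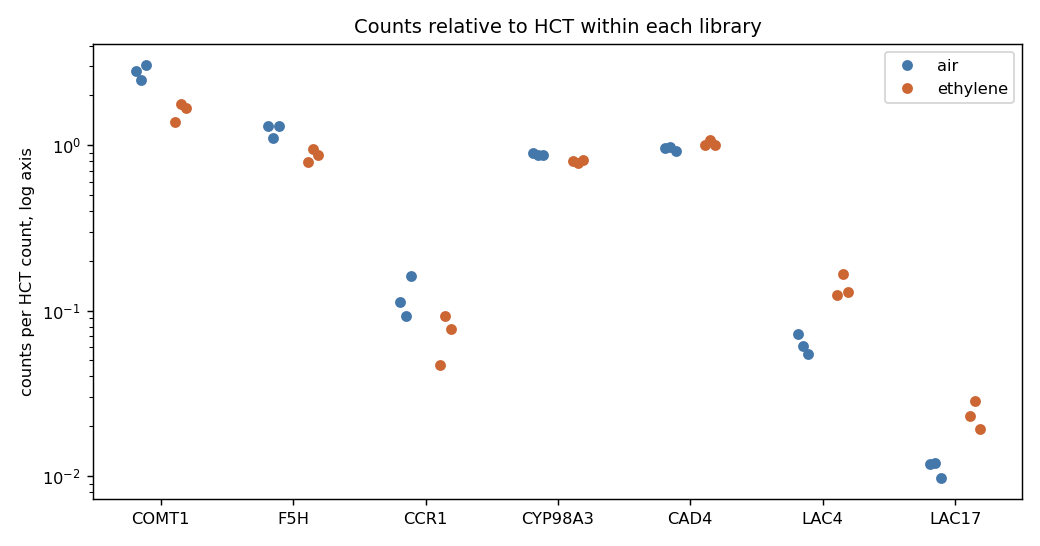
Counts of 7 genes divided by the HCT count of the same library, on a log axis; points are libraries, blue for air and orange for ethylene. COMT1, F5H and CCR1 lie lower after ethylene and LAC4 and LAC17 higher, with CYP98A3 and CAD4 near the same ratio in both groups.

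The other 15 laccase genes were looked at as a family, of which 12 were tested. Of these 5 rose and 1 fell, against 15.8% and 16.8% of all loci, with a median log2 fold change of 0.76 against 0.02. With spike-in scaling 7 were higher and 0 lower, against 40% and 4.63% of all loci. LAC11, which overlaps in function with LAC4 and LAC17, had 17.2, 10.7 and 10.3 CPM in air and, after ethylene, 33.8, 38.2 and 19.2 CPM, and rose by 1.25 ± 0.27 (edgeR adjusted p = 0.00566). Its groups were apart, though air replicate 1 came close to ethylene replicate 3. LAC5 rose by 0.81 ± 0.17 (edgeR adjusted p = 0.00449), from 6.73 ± 0.496 to 11.8 ± 1.59 CPM. LAC3, known from the Casparian strip of the endodermis, rose by 0.92 ± 0.21, LAC1 by 1.02 ± 0.23, and LAC7 by 1.99 ± 0.52 from 0.717 ± 0.642 CPM, a call lost without ethylene replicate 2 (adjusted p = 0.0609) and a value of 3.01 without air replicate 1. LAC8, the laccase with the highest CPM, went the other way, with 104, 97.8 and 105 CPM in air and 64.6, 72.7 and 67.9 CPM after ethylene. It fell by 0.58 ± 0.08 (edgeR adjusted p = 0.000561), and scaled on the spike-ins its value was -0.13 (adjusted p = 0.596). LAC10 and LAC14 had under 10 counts in every library.

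**Figure D4:**
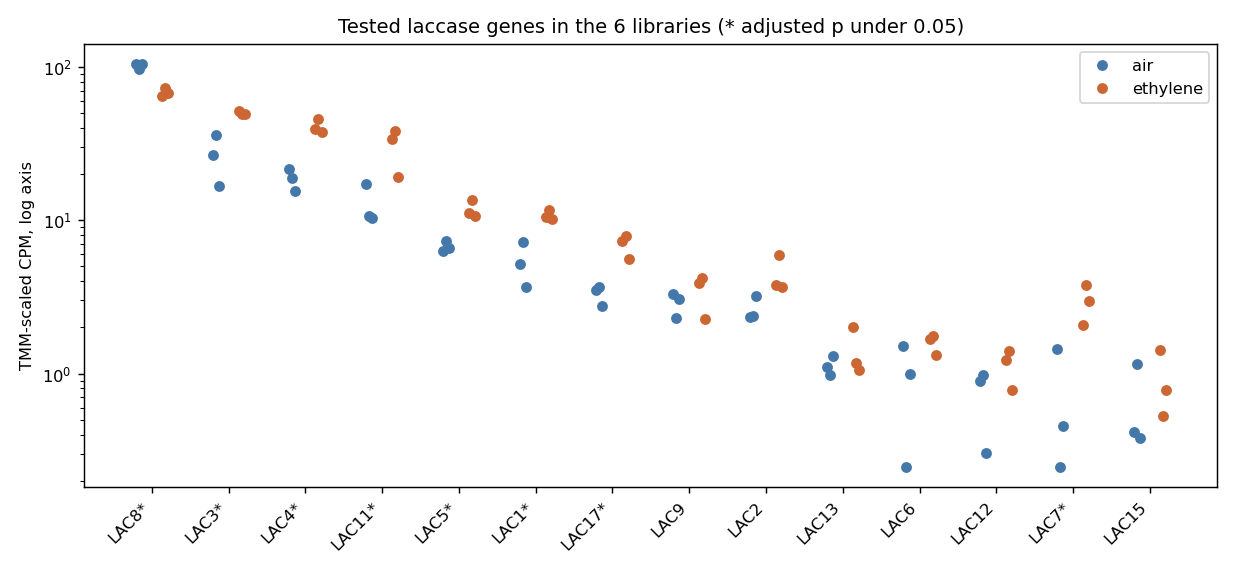
TMM-scaled CPM of the 14 tested laccase genes, LAC4 and LAC17 included, ordered by their mean in air on a log axis; points are libraries and an asterisk marks an edgeR adjusted p under 0.05. The 7 called rises include LAC3, LAC4 and LAC11, and LAC8 is the called fall.

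The entry enzymes that feed the pathway from phenylalanine had 3 of 7 tested genes higher and 0 lower, against 15.8% and 16.8% of all loci, with a median of 0.45. PAL1, phenylalanine ammonia-lyase and the member with the highest CPM, rose by 0.45 ± 0.12 (edgeR adjusted p = 0.0145) from 500.3 ± 85.3 to 684 ± 32.3 CPM, a call lost without ethylene replicate 2 (0.0558). PAL4 rose by 0.74 ± 0.21, a call lost without air replicate 1 (0.0563) or ethylene replicate 1 (0.0919). 4CL3, the coumarate ligase linked to flavonoids, rose by 1.25 ± 0.25 (edgeR adjusted p = 0.00398). The 13 relatives of the cytosolic enzymes, with the caffeoyl shikimate esterase CSE among them, had 2 of 7 tested genes higher and 2 lower, against 15.8% and 16.8% of all loci. The higher count was 1 with ethylene replicate 1, ethylene replicate 2 or air replicate 1 left out, and the lower count was 1 without ethylene replicate 2 and with the mean CPM filter. With spike-in scaling 4 were higher and 1 lower, against 40% and 4.63% of all loci. CAD9 rose by 0.38 ± 0.08, CAD8 fell by 1.89 ± 0.42 and CAD1 fell by 0.45 ± 0.11; the CAD1 value was 0.01 with spike-in scaling and its call was also lost without ethylene replicate 2 (0.0577). CSE differed by 0.17 ± 0.09 on the log2 scale (edgeR adjusted p = 0.186) and was called with spike-in scaling at 0.63 (0.00285). Reads of CAD8 and its neighbouring relative CAD7 may not have been told apart, which was not tested. CAD7 differed by 0.30 ± 0.12 and was not called. CYP98A8, CYP98A9 and CAD6 had under 10 counts in every library.

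Class III peroxidases, which oxidise monolignols with hydrogen peroxide beside the laccases, had 4 of 8 tested genes higher and 0 lower, against 15.8% and 16.8% of all loci, with a median of 0.47. With spike-in scaling all 8 were higher, where 40% of all loci were higher and 4.63% lower. PRX25, a peroxidase of stem lignification, went from 4.05 ± 0.715 to 13.2 ± 3.69 CPM and rose by 1.70 ± 0.24 (edgeR adjusted p = 0.000545). PRX4 rose by 0.56 ± 0.14 (adjusted p = 0.0105). PRX66 rose by 0.64 ± 0.19 and PRX42, the one with the highest CPM, by 0.37 ± 0.12. The PRX66 groups overlapped, and its call was lost (adjusted p from 0.0742 to 0.105) on leaving out any library except air replicate 1 and ethylene replicate 3. That of PRX42 was lost without any of the libraries other than air replicate 2 (0.0550 to 0.145), with a value of 0.22 without air replicate 3. With either air replicate 3 or ethylene replicate 2 left out, 2 peroxidases were called. PRX2 and PRX47 had under 10 counts in every library.

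A list of side branches and auxiliary steps holds enzymes of sinapate esters, coumarins and lignans, glucosyltransferases and glucosidases of monolignols, the P450 reductases ATR1 and ATR2 and the monolignol transporter ABCG29. Of its 12 tested genes 7 were higher and 3 lower, against 15.8% and 16.8% of all loci, with a median of 0.47, though the higher calls were 3 without ethylene replicate 1 or ethylene replicate 2 and 4 without air replicate 3. SNG1, the sinapoyltransferase that makes sinapoylmalate downstream of F5H and COMT1, stood at 40.9, 35.5 and 56.1 CPM in the air libraries and at 14.1, 16.6 and 17.2 CPM in the ethylene libraries. SNG1 fell by 1.46 ± 0.17 (edgeR adjusted p = 0.000187), and by 1.03 with spike-in scaling, so it was lower under both scalings. BGLU46, a beta-glucosidase of monolignol glucosides, fell by 2.03 ± 0.25 (edgeR adjusted p = 0.000284). UGT72E3, a glucosyltransferase of monolignols whose reads may be shared with its close relative UGT72E2, rose by 1.65 ± 0.30 (edgeR adjusted p = 0.00251). REF1, the aldehyde dehydrogenase that yields ferulate and sinapate, went from 317 ± 25.5 CPM to 376 ± 38.3 CPM, a log2 difference of 0.25 ± 0.10 that was not called (edgeR adjusted p = 0.0751). It was called with spike-in scaling (0.000766), without ethylene replicate 3 (0.0332), with upper-quartile factors (0.0470) and among loci with a mean of at least 5 CPM (0.0457). SNG2 had under 10 counts in every library.

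Among 21 regulators of lignin and secondary wall genes, 14 were tested, 3 rose and 1 fell, with a median of 0.18; this 28.6% called is near the 32.6% of all loci. With spike-in scaling 8 were higher and 1 lower, against 40% and 4.63% of all loci. MYB20, an activator of phenylalanine and lignin genes, had 27.6, 26.0 and 31.3 CPM in air and, after ethylene, 11.1, 9.72 and 10.6 CPM and fell by 1.43 ± 0.13 (edgeR adjusted p = 5.1e-05), or by 0.98 with spike-in scaling. MYB83, a master switch of the secondary wall, rose by 1.75 ± 0.37 from 0.783 ± 0.306 CPM (edgeR adjusted p = 0.00526), and KNAT7, a homeodomain regulator of the wall, by 0.86 ± 0.17 (0.00413). The Mediator subunit gene MED5A, a brake on the pathway and the member with the highest CPM, differed by -0.14 ± 0.10 (0.317), or by 0.30 with spike-in scaling. NST1, NST2, NST3 and MYB58 had under 10 counts in every library, and MYB58 has 2 annotated transcripts, so its level may not be readable.

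**Figure D5:**
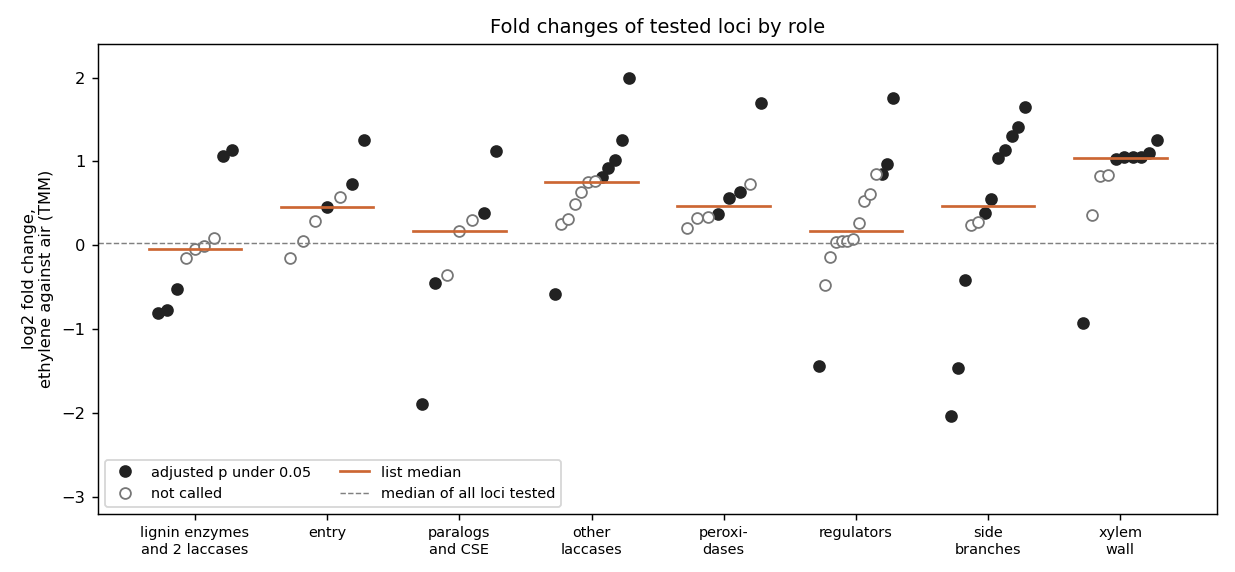
Log2 fold change of each tested locus, grouped by role, on the TMM scale; filled points passed an adjusted p of 0.05, open points did not, the orange bar is the list median and the dashed line the median of all loci tested. The xylem wall and other laccase lists have medians of 1.04 and 0.76, and the 10 genes' own median is -0.04.

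Genes of the xylem secondary wall were looked at beside the laccases. Of 10 tested, 6 rose and 1 fell, against 15.8% and 16.8% of all loci, with a median of 1.04; their summed level was 125 to 140 CPM in the air libraries and 190 to 232 CPM in the ethylene libraries, and none of the 11 was at 0 in all libraries, COBL4 having under 10 counts in each. IRX3 and IRX1, cellulose synthase genes, rose by 1.05 ± 0.12 and 1.05 ± 0.14, XCP2, a xylem cysteine protease and the member with the highest CPM, by 1.05 ± 0.15, whereas FRA8, a glycosyltransferase of xylan synthesis, fell by 0.92 ± 0.12, which lost its call when scaled on the spike-ins (adjusted p = 0.0608). LAC4 counts per summed count of the list, chosen after the data were seen, were 0.124 to 0.154 in air and 0.17 to 0.199 after ethylene, a log2 difference of 0.46 with groups apart (exact two-sided permutation test, p = 0.1, the smallest possible). LAC17 differed by 0.38 on that measure, also with groups apart. Both ratios depend on which genes the sum holds. It includes FRA8, which fell from a mean of 30.3 to 16.0 CPM, and GUT2, which differed by 0.36 ± 0.14 and was not called. The 1.13 of LAC4 and the 1.06 of LAC17 were near the list median and the rises of IRX3, IRX1 and XCP2. The ratios therefore do not show that the laccases rose more than most genes of the list.

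Some markers of other cell types also differed between the groups, where 15.8% of all loci were higher and 16.8% lower. The lists are small, and the 14.3% called among root and endodermis markers was under the 32.6% of all loci. The part of these cell types in the results was not tested. Of 7 root and endodermis markers 1 was higher, CASP2 of the Casparian strip (a call lost without air replicate 1 or ethylene replicate 1, adjusted p = 0.0700 and 0.0603), and their sum was 4723 to 6299 CPM in air and 5320 to 6347 CPM after ethylene. PYK10, which was not called, made up most of that sum. The phloem sum was 147 to 170 CPM in air and 198 to 223 after ethylene, with 1 of 2 tested genes higher and 1 of 4 markers at 0 in every library. That marker, SEOR2, has 2 annotated transcripts, so its level may not be readable from these counts. The epidermis sum was 962 to 1176 CPM in air and 919 to 931 after ethylene, with 1 of 3 higher and 1 lower. FDH, the largest part of that sum, fell from a mean of 890 to 499 CPM, whereas PDF1 rose from 182 to 410 CPM. The mesophyll sum was 34759 to 37820 CPM in air and 25408 to 27170 after ethylene, with 2 of 4 lower. Most of it was CAB1, with a mean of 27686 CPM in air and 17638 after ethylene. LHCB2.1 was also called lower, and CAB3 and RCA were not called. Reads of CAB1 and its relative CAB3 may not have been told apart, which was not tested.

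The loci whose pattern over the 6 libraries lay nearest to that of each laccase were found among 11151 loci with a mean of at least 5 CPM, by the root mean square difference of centred log2 CPM. For LAC4 these were MKK6, a kinase kinase of cytokinesis (0.07), FLS1, flavonol synthase (0.07), and MAP65-5, a microtubule-associated protein (0.08). For LAC17 they were AT5G38030 (0.07), PLL2 (0.08) and IRX1 (0.09). LAC17 ranked 47 for LAC4 and LAC4 ranked 36 for LAC17, both at 0.13.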

How the data were processed

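The authors deposited, for each library, read counts as whole numbers for every transcript. Aligner, counter, build and strand use: not given in the sources used here. Isoform counts were summed per locus (325 identifiers in lower case, with no isoform number, were kept as loci of their own), and library sizes were formed without spike-in reads. Of 53688 isoform identifiers, 53219 are in the RefSeq annotation of TAIR10.1, which gave lengths, symbols, overlaps and sequence. Coordinates are those of TAIR10.1. The authors' deposited table also holds a log2 fold change and its p-value for each transcript, printed for LAC4 alone, and its 6 per-sample columns were not used.

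The test was edgeR 4.0.16 (R 4.3.3), quasi-likelihood, with TMM factors, filterByExpr (minimum count 10, minimum total 15), group alone, and Benjamini-Hochberg adjustment over all loci tested. CPM is TMM-scaled. The scripts were tested on simulated data. Alternatives were RLE, upper-quartile and spike-in factors, DESeq2 1.42.0, other filters, the most abundant transcript alone, a replicate block, and each library left out. Within-library ratios used exact permutation tests. Replicates differed beyond sampling noise (chi-square per degree of freedom from 5.34 to 29.0).

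Members and lists were chosen with earlier results of these data known. All 10 members were named, and from each of 7 wider lists up to 3 called genes with the smallest p, the gene with the highest mean CPM and genes under 10 counts in every library; for both laccases, the 3 nearest patterns. LAC1, LAC3, LAC7 and CASP2 were named after their values were seen. Total counts per library set the precision of low genes, and the 95% intervals are those of the model.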

Additional observations from a re-analysis of the deposited data

How the results depend on the processing

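With spike-in scaling, 4 of the 9 tested genes were called higher and 0 lower, where 40% of all loci were higher and 4.63% lower. The share of these genes called higher was thus near that of all loci. Of the 70 tested genes of the wider lists 47 were higher and 4 lower, against 30 and 8 with TMM factors. Over all 17887 loci tested 7160 were higher and 829 lower, against 2828 and 3007. Spike-in scaling turned HCT to 0.45, CYP98A3 to 0.31, CAD5 to 0.42, CAD1 to 0.0075 and MED5A to 0.30 on the log2 scale. HCT also turned to 0.017 when loci under a mean of 5 CPM were left out and to 0.012 with upper-quartile factors. With 1 library left out, HCT ranged from -0.062 to 0.030 and CAD5 from -0.12 to 0.026, none of them called. The cause was not tested. LAC4 and LAC17 stayed called higher under every alternative run, and COMT1 and F5H stayed called lower under all of them other than spike-in scaling. With 1 library left out, 2 genes were higher and 2 to 3 lower, CCR1 being the call lost; 20 to 29 of the wider lists' genes were higher and 7 to 8 lower, with 1978 to 2845 loci higher and 2383 to 3058 lower.

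Libraries with the same replicate number did not deviate together (correlations of 0.02, -0.05 and 0.11), and the replicate numbers give no pairing. With the replicate block, 2 of the genes were higher and 3 lower, and 2767 loci higher and 2807 lower; REF1 gained its call there (edgeR adjusted p = 0.0441). Low counts limit LAC17, MYB83 and LAC7, and CCoAOMT1 could not be measured.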
